A study of Mus musculus with 8 samples.

Results

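Gene expression in the striatum was compared between mice that received MPTP together with needling at acupoints and mice that received saline. The comparison takes 4 of the 8 arrays of the series, picked by sample title alone: acupoint mice 1 and 2 and control mice 1 and 2, with 1 array per mouse. All animals were male C57BL/6 mice, an inbred laboratory strain, and the labels give an age of 6 weeks. Control mice were injected with saline. Acupoint mice received MPTP into the abdomen over the same 4 weeks, with a dose of 20 mg/kg each 24 h. Held by hand, they were also needled on both sides, to a depth of 3 mm at the point GB34 and 1 mm at the point LR3, and each needle was spun for 15 s. There were 14 sessions 48 h apart, the first 2 h after the first MPTP injection. The labels give groups of 9 mice for the saline and MPTP treatments, and RNA of both striata was taken from 2 mice per group. The other 4 arrays are MPTP mice without needling and MPTP mice needled 3 mm deep at the hips, called non-acupoint, and they are used only to set the acupoint values in context. No saline group with needling was analysed here, so MPTP, needling and restraint cannot be told apart in the difference. The comparison asks what differed from saline after both treatments.

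The striatum is the input nucleus of the basal ganglia, and most of its neurons are inhibitory projection neurons that receive glutamate from the cortex and thalamus and dopamine from the midbrain. MPTP is converted to a toxin that enters dopamine neurons through their transporter, damages their mitochondria and removes dopamine axons from the striatum, which makes it a model of Parkinson's disease. Immediate early genes are switched on within minutes by synaptic activity, while glucocorticoids, the stress hormones of the adrenal gland, act in the brain through nuclear receptors that switch on their own set of target genes.

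After MPTP and acupoint needling, 1 gene passed the adjusted test. Ccn3, a secreted matrix protein of the CCN family, had log2 values of 8.28 and 8.23 in the control mice and 6.77 and 6.62 in the acupoint mice. It fell by 1.56 on the log2 scale (SE 0.10, limma adjusted p = 0.0401), which is 2.95-fold lower, and the groups did not overlap. Ccn3 was 6.64 and 8.21 in the MPTP mice and 6.20 and 7.55 in the non-acupoint mice, so 1 MPTP mouse lay at the level of the controls. Its call did not survive removal of either control array or a fit on all 8 arrays (adjusted p between 0.883 and 1), nor a table without the filter on dim probe sets (0.0914) or with unnamed ones included (0.332). The difference itself stayed between -1.64 and -1.49 with any 1 of the 4 arrays left out. With all 8 arrays it was by construction the same, -1.56, while the spread of the other groups enters the error. In all, 1 of 16342 probe sets was called (0.00612%), and 750 (4.59%) had an unadjusted p under 0.05, where chance would give 817. Among these, 264 (1.62%) were higher and 486 (2.97%) lower in acupoint mice, a share of 35.2% higher that became 47.9% after quantile normalisation of the 4 arrays and 53.5% without acupoint mouse 2. With 1 probe set per gene the shares were 1.63% higher and 3.08% lower among 14890 genes. These per-gene shares are the background for the counts below, in which "lower" and "higher" refer to group means, and a count at an unadjusted p under 0.05 is a description and not a set of calls. All genes other than Ccn3 named below missed the adjusted threshold.

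**Figure D1:**
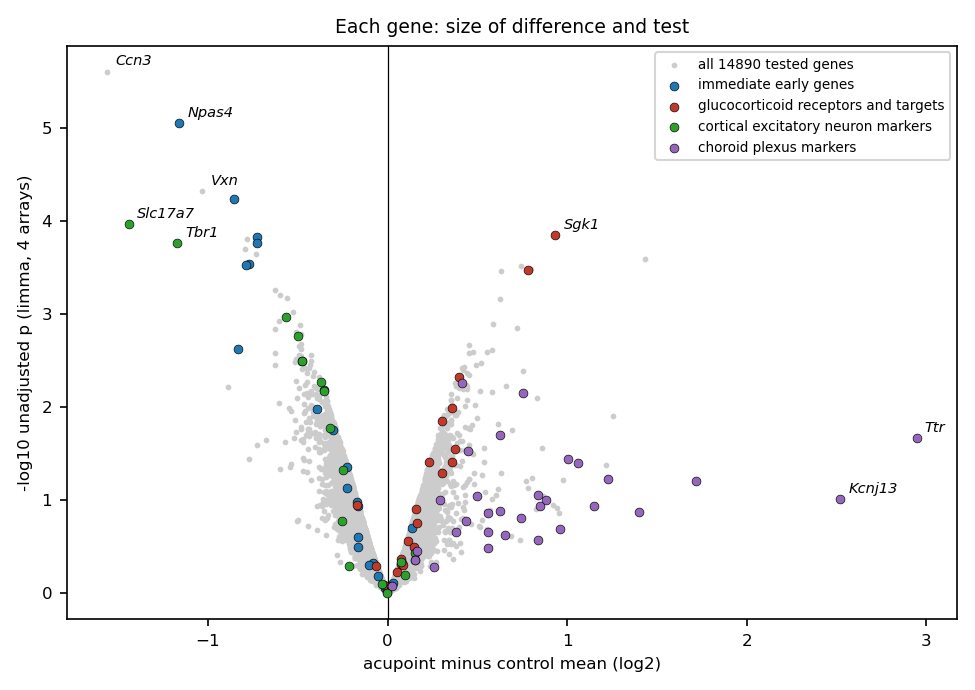
Every tested gene by its difference between acupoint and control means (x axis, log2) and the unadjusted limma p on a −log10 scale (y axis), with 4 gene lists coloured. Immediate early genes and cortical markers lie on the left, with Ccn3 at -1.56 and Npas4 at -1.16, glucocorticoid genes on the right with Sgk1 at 0.94, and choroid plexus markers such as Ttr at 2.95 far to the right with weaker p-values.

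The arrays were similar in overall level, with medians between 6.02 and 6.12 over the 8 arrays of the series. Control mice correlated at 0.995 over the tested probe sets and acupoint mice at 0.989, and a log2 gap of at least 1 separated the controls in 1 probe set and the acupoint mice in 72 (0.441%). A first principal component of the 4 arrays, with 45.8% of the variance, put acupoint mouse 1 at 15.9 and acupoint mouse 2 at -14.4, with the controls at -4.43 and 2.94. The second, with 35.2%, put the controls at 11.4 and 7.69 and the acupoint mice at -8.15 and -10.9. The tissue label fits the markers of striatal projection neurons: Penk, the enkephalin precursor, was between 13.05 and 13.35 and Ppp1r1b, the phosphatase inhibitor DARPP-32, between 11.21 and 11.55 on all 4 arrays. Acupoint mouse 1 also carried markers of the choroid plexus, given further below, and the lists that differed most from the background are therefore also given in each acupoint mouse.

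The promoters of some of the genes that differed most are shown because they carry the DNA words through which activity, glucocorticoid and clock signals are known to act. Sequences are the 250 bases before the annotated start in RefSeq (GRCm38.p6), written 5′ to 3′ in the direction of the gene. In the first 5, all of immediate early genes, capitals mark TGACG on either strand, the core of the cAMP response element; overlapping matches make up the full element TGACGTCA.
Npas4 (chr19:4989972-4990221, minus strand): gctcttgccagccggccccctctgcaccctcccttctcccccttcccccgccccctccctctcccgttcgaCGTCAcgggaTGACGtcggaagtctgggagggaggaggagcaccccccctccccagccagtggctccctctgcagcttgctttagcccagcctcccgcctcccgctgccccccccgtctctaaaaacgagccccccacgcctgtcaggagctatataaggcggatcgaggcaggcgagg
Nr4a1 (chr15:101266596-101266845, plus strand): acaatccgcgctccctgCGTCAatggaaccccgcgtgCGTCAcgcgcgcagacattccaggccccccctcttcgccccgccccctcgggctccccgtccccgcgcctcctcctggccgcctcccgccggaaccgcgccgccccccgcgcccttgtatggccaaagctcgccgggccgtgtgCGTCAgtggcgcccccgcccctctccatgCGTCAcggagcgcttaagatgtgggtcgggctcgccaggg
Dusp1 (chr17:26508473-26508722, minus strand): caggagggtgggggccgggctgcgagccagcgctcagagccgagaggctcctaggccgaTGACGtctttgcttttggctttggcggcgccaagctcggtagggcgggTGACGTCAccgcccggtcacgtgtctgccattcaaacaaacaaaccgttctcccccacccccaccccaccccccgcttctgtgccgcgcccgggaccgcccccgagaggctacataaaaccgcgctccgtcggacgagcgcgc
Btg2 (chr1:134079156-134079405, minus strand): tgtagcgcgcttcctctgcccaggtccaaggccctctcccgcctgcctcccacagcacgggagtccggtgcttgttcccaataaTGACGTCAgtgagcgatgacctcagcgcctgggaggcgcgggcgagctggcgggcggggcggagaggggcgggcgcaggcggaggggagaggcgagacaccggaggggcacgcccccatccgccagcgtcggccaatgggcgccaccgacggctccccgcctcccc
Fos (chr12:85473640-85473889, plus strand): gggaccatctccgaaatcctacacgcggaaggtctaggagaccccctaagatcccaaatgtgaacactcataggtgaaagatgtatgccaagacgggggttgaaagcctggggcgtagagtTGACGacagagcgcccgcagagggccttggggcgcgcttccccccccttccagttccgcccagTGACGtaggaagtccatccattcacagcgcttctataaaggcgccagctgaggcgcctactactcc
In the window of Sgk1, a glucocorticoid target with 6 annotated starts, capitals mark the palindromic glucocorticoid response element, which was searched with its strict consensus ends and any 3 bases between them.
Sgk1 (chr10:21993640-21993889, plus strand): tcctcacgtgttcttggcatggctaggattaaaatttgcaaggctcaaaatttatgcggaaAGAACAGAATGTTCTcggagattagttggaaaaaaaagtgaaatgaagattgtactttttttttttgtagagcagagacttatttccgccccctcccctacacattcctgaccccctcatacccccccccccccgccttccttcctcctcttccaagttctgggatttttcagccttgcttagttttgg
In Ciart and Bhlhe41, both repressors of the circadian clock, capitals mark the E-box CACGTG, the site of the clock activators, which is its own reverse complement.
Ciart (chr3:95882229-95882478, minus strand): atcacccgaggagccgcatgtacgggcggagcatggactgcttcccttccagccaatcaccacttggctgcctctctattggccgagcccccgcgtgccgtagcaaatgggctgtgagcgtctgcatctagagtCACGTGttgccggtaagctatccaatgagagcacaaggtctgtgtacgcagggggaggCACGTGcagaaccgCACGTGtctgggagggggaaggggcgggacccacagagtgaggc
Bhlhe41 (chr6:145865421-145865670, minus strand): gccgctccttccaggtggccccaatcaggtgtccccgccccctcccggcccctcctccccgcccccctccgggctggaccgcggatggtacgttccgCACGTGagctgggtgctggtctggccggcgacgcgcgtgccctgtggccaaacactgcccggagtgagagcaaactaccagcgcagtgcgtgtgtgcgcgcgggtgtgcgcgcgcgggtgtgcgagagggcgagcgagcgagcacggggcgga
TGACG occurred in 14 of the 20 immediate early genes with a window (70%), against 19.8% of 27025 genes with one, when any start of a gene could hold it. The full element TGACGTCA was in 2 of the 20, against 1.77% of all genes. The glucocorticoid response element was in 3 of 27025 genes (0.0111%), of which Sgk1 is 1 of the 21 glucocorticoid genes with a window, and it begins at position -189 relative to that start. CACGTG was in 4 of 14 clock genes, against 6.86% of all genes. These matches describe the letters only.

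Immediate early genes were lower in acupoint mice than in controls. Of 24 measured, 22 had a lower mean, against 56.7% of all genes, and 12 of these had an unadjusted p under 0.05, where 3.08% of all genes did, and none was higher at that p. Both acupoint mice lay below both controls in 15, against 21.5% of all genes. The list's median difference was -0.23, against -0.02 over all genes, and each acupoint mouse alone gave -0.25 and -0.29. Of the 25 genes in the list, 1 was below the filter on dim probe sets. The count of 12 was 6 in a fit on all 8 arrays and lay between 9 and 12 when any 1 of the 4 arrays was left out.

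Among the transcription factors, Npas4, which neurons induce on calcium entry and which directs inhibitory synapse formation, was 7.93 and 7.95 in controls and 6.80 and 6.76 in acupoint mice. The difference was -1.16 (SE 0.09, limma adjusted p = 0.0723), with a gap between the groups far wider than the spread within either. Nr4a1, an orphan nuclear receptor that dopamine and glutamate inputs regulate in striatum, went from 10.48 and 10.51 to 9.67 and 9.62, a difference of -0.86 (SE 0.09, adjusted p = 0.235). Egr2, a zinc finger factor of the early growth response family, was 7.61 and 7.82 against 6.96 and 6.92, a difference of -0.77. Fos, a subunit of the AP-1 factor, was 7.56 and 7.58 in controls. In acupoint mice it was 6.998 and 6.48, so the 2 needled mice differed from each other by more than the controls did, and the mean difference was -0.83 (SE 0.17, adjusted p = 0.96).

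Among the effectors, Arc, which controls the removal of AMPA receptors from synapses, was 9.41 and 9.36 in controls and 8.67 and 8.65 in acupoint mice (difference -0.73, SE 0.09, adjusted p = 0.283). Dusp1, a phosphatase that switches off MAP kinases, was 9.20 and 9.29 against 8.52 in both acupoint mice, a difference of -0.73. Btg2, an antiproliferative cofactor of mRNA decay, was 7.16 and 7.04 against 6.41 and 6.21, a difference of -0.79. Groups that do not overlap were a condition for naming Dusp1 and Btg2, and Nr4a1 and Egr2 above. Arc, Npas4 and Fos were among the 16 markers named whatever their values. Nr4a3, named here after its values were seen, was the only member with both acupoint mice above both controls, at 7.73 and 7.70 against 7.52 and 7.63, a difference of 0.14 (adjusted p = 0.96).

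Genes of the later wave of activity-regulated transcription were less uniform. Of 19 measured, 11 were lower, against 56.7% of all genes, with a median of -0.06. An unadjusted p under 0.05 was met by 2, both lower, where 3.08% of all genes were lower at that p. Those 2 were Ptgs2, the inducible cyclooxygenase, at -0.51 (6.95 and 6.66 against 6.40 and 6.20), and Gadd45g, a stress and DNA demethylation factor, at -0.42 (8.06 and 8.02 against 7.80 and 7.44).

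**Figure D2:**
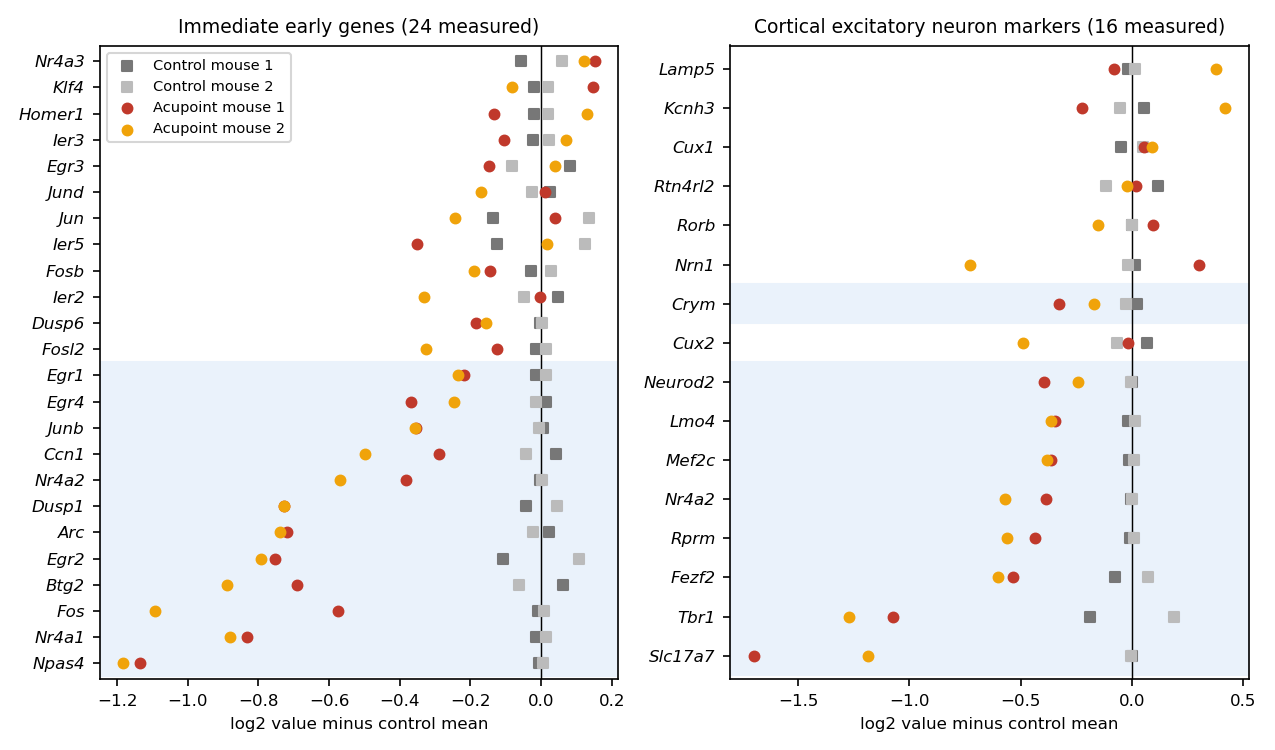
Log2 value minus the control mean (x axis) for each measured immediate early gene (left) and each cortical excitatory neuron marker (right), with squares for the control mice and circles for the acupoint mice; shaded rows have an unadjusted p under 0.05. In the 12 shaded immediate early genes, from Npas4 at -1.16, and the 9 shaded cortical markers, from Slc17a7 at -1.44, the acupoint circles lie to the left of the control squares.

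Markers of cortical excitatory neurons were also lower. Of 16 measured, 13 had a lower mean, against 56.7% of all genes. At an unadjusted p under 0.05 stood 9, all lower, against 3.08% of all genes. The median was -0.29, and -0.34 and -0.37 in acupoint mice 1 and 2. Slc17a7, the vesicular glutamate transporter of cortical neurons, was 9.47 in both controls and 7.77 and 8.28 in acupoint mice, a difference of -1.44 (SE 0.17, adjusted p = 0.283), or 2.72-fold lower. Tbr1, a transcription factor of deep-layer and early-born cortical neurons, was 7.44 and 7.82 against 6.56 and 6.36, a difference of -1.17 (SE 0.15). Fezf2, which specifies subcortical projection neurons, was lower by a difference of -0.57 and Rprm, a cell cycle arrest gene used as a deep-layer marker, by one of -0.50. Mef2c, an activity-dependent factor expressed widely in cortex, differed by -0.37, and Nr4a2, a nuclear receptor of claustrum and deep cortex, by -0.48. Nr4a2 is also an immediate early gene, so it stands in both lists, and in that of dopamine synthesis, transport and breakdown. These 6 were chosen among members whose groups do not overlap; in the whole list both acupoint mice lay below both controls in 9 of 16, against 21.5% of all genes. The count of 9 lower genes was 3 in a fit on all 8 arrays and lay between 6 and 9 when 1 array was left out. In tissue RNA, fewer cells of a type and less RNA per cell cannot be told apart. The part that the amount of cortex in the dissected piece has in the lower immediate early genes was not tested.

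Other lower genes were chosen for a small p or a large difference among genes whose groups do not overlap. Separate and mostly tight groups follow from that choice. Vxn, a regulator of neural differentiation, was 9.85 and 10.004 in controls and 8.96 and 8.83 in acupoint mice, a difference of -1.03 (SE 0.11, adjusted p = 0.235). Rspo2, a secreted enhancer of Wnt signalling, was 6.65 and 6.48 against 5.81 and 5.74, a difference of -0.79. Ipcef1, a partner of an ARF exchange factor, was 7.07 and 7.22 against 6.35 and 6.37 (difference -0.78), and Tmem178, a regulator of calcium entry, was 9.02 and 9.16 against 8.37 and 8.34 (difference -0.73). Gnrh1, the hormone that starts the reproductive axis, was 6.69 and 6.60 against 6.11 and 5.40, a difference of -0.89 with a spread between the acupoint mice (SE 0.22). Non-overlap alone was common in this comparison, at 21.5% of genes for the lower direction.

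Glucocorticoid genes stood higher. Of 22 measured receptors and targets, 19 had a higher mean, against 43.3% of all genes, and 8 had an unadjusted p under 0.05, all higher, against 1.63% of all genes. Both acupoint mice exceeded both controls in 13, against 12.5% of all genes. The median was 0.15, and 0.15 and 0.19 in mice 1 and 2. The count of 8 was 6 in the 8-array fit and lay between 3 and 7 when 1 array was left out, with 3 without control mouse 1 and 5 without control mouse 2.

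Sgk1, a kinase that glucocorticoids induce and that regulates ion channels, was 8.86 and 9.07 in controls and 9.98 and 9.82 in acupoint mice. The difference was 0.94 (SE 0.12, adjusted p = 0.283), or 1.91-fold higher. Zbtb16, a zinc finger repressor among the most responsive glucocorticoid targets, was 6.99 and 7.22 against 7.92 and 7.85, a difference of 0.78 (SE 0.11, adjusted p = 0.299). Both genes had a gap between the groups wider than the spread within them. Apart from Nr3c1, and from Sgk1, which was among the 16 markers named whatever their values, the members described here had small p-values among those whose groups do not overlap. That was the condition for naming them. Hif3a, a hypoxia-inducible factor subunit, was 5.12 and 5.17 against 5.50 and 5.58, near the filter of 5.25, a difference of 0.40. Sult1a1, a sulfotransferase, differed by 0.36 and Klf9, a hormone-induced factor that restrains neuronal plasticity, by 0.38 (9.96 and 10.005 against 10.19 and 10.54). Fkbp5, the co-chaperone that limits the receptor's own signalling, was 8.04 and 8.09 against 8.38 and 8.35, a difference of 0.30. The glucocorticoid receptor gene Nr3c1, named after its values were seen, was 9.06 and 9.22 against 9.17 and 9.14, a difference of 0.02 with overlapping groups.

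Clock genes were higher too, with smaller differences in their leading members than Sgk1 and Zbtb16. Of 16 measured activators and repressors, 13 had a higher mean, against 43.3% of all genes. At an unadjusted p under 0.05 stood 4, all higher, against 1.63% of all genes. The median was 0.16, and 0.12 and 0.09 in mice 1 and 2. Per2, the period protein that represses the clock and also a glucocorticoid target, was 6.65 and 6.63 in controls and 7.04 and 7.16 in acupoint mice, a difference of 0.46 (SE 0.10, adjusted p = 0.96). Ciart was 7.69 and 7.73 against 8.02 and 8.29 (difference 0.44), and its second probe set differed by 0.245 (limma unadjusted p = 0.056). Bhlhe41 was 8.39 and 8.59 against 8.85 and 8.82 (difference 0.35), and Nr1d2, a nuclear receptor that represses Bmal1, was 9.37 and 9.57 against 9.82 and 9.76 (difference 0.32). Dbp, a factor that clock proteins drive directly, was 9.26 and 9.23 against 9.58 and 9.79, a difference of 0.44. Of 6 measured output factors, Bhlhe41 among them, 5 were higher, against 43.3% of all genes. The hour of dissection is not given in the sources used here, and its part in these values was not tested. The count of 4 was 2 in the 8-array fit and between 2 and 6 with 1 array left out.

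**Figure D3:**
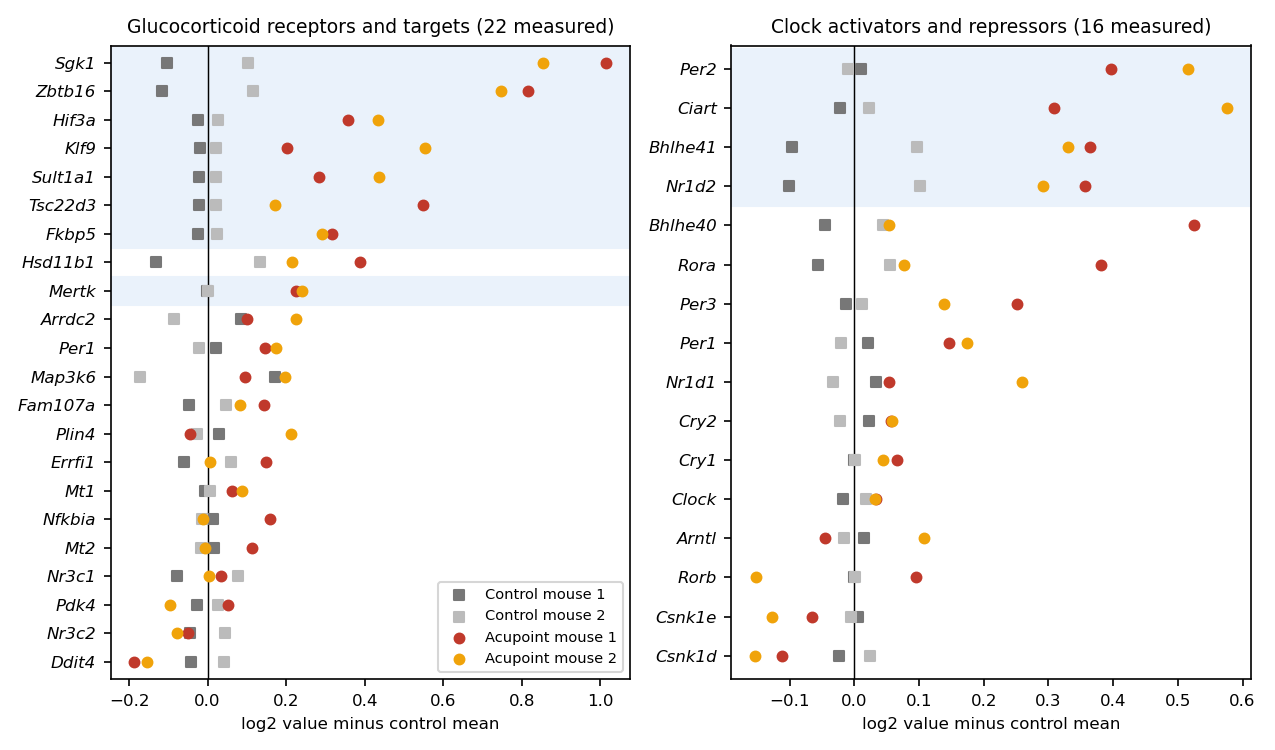
Log2 value minus the control mean (x axis) for each measured glucocorticoid receptor or target gene (left) and each clock activator or repressor (right), drawn as squares for control and circles for acupoint mice, with shading for an unadjusted p under 0.05. Sgk1 at 0.94 and Zbtb16 at 0.78 stand apart from the other glucocorticoid genes, and the shaded clock genes lie between 0.32 and 0.46.

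Other higher genes had diverse functions. Mpp7, a scaffold of cell junctions, was 7.65 and 7.85 in controls and 8.48 and 8.51 in acupoint mice, a difference of 0.74 (SE 0.10, adjusted p = 0.299), and its second probe set differed by 0.48 in the same direction. Adipor2, an adiponectin receptor, was 8.68 and 8.89 against 9.66 and 9.51 (difference 0.80, SE 0.11). Cables1, which links the Abl and Cdk5 kinases, was 6.70 and 6.67 against 7.29 and 7.34 (difference 0.63). Tns2, a focal adhesion protein, differed by 0.59 and Cyp2d40, a cytochrome P450, by 0.72. The matrix protease Adamts15 differed by 0.45, the nuclear matrix protein Banp by 0.58, the flippase Atp10a by 0.47 and the growth factor Bmp2 by 0.56. The choice of these genes required groups that do not overlap. Of all 14890 genes, 68 (0.457%) had a mean higher by 0.5 or more and 44 (0.296%) a mean lower by 0.5 or more.

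Choroid plexus markers held most of the largest positive differences, and they came mainly from acupoint mouse 1. All 32 measured had a higher mean, against 43.3% of all genes, and the median difference was 0.64. An unadjusted p under 0.05 was met by 7, against 1.63% of all genes that were higher at that p. The filter on dim probe sets used the mean over all arrays of the series, including acupoint mouse 1. Genes dim in controls, such as Slc4a5, could enter the list through arrays rich in these markers. That favours a higher acupoint mean, so the count of higher members is partly set by the filter. Relative to the control mean the median was 1.38 in acupoint mouse 1 and 0.03 in acupoint mouse 2, and mouse 1 exceeded mouse 2 in 32 of 32. Ttr, the thyroid hormone carrier that this tissue secretes into the cerebrospinal fluid, was 8.63 and 8.88 in controls and 13.42 and 9.98 in acupoint mice, a difference of 2.95 (SE 0.97, adjusted p = 0.96). For Ttr, and for some other members such as Kl and Slc4a5, mouse 2 also lay above both controls, while for Sostdc1 it lay between them. Kcnj13, a potassium channel of the choroid epithelium, was 5.34 and 5.45 against 10.23 and 5.59, and Kl, which encodes klotho, 5.64 and 5.55 against 8.67 and 5.96. Sostdc1, a secreted BMP antagonist, was 6.22 and 6.03 against 8.96 and 6.09. The bicarbonate transporter Slc4a5 was 5.24 and 5.05 against 6.92 and 5.49, and the tight junction gene Cldn1, outside the list, 5.17 and 5.34 against 7.13 and 5.88. Without acupoint mouse 1 the list's median was 0.03, with 18 of 32 higher.

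**Figure D4:**
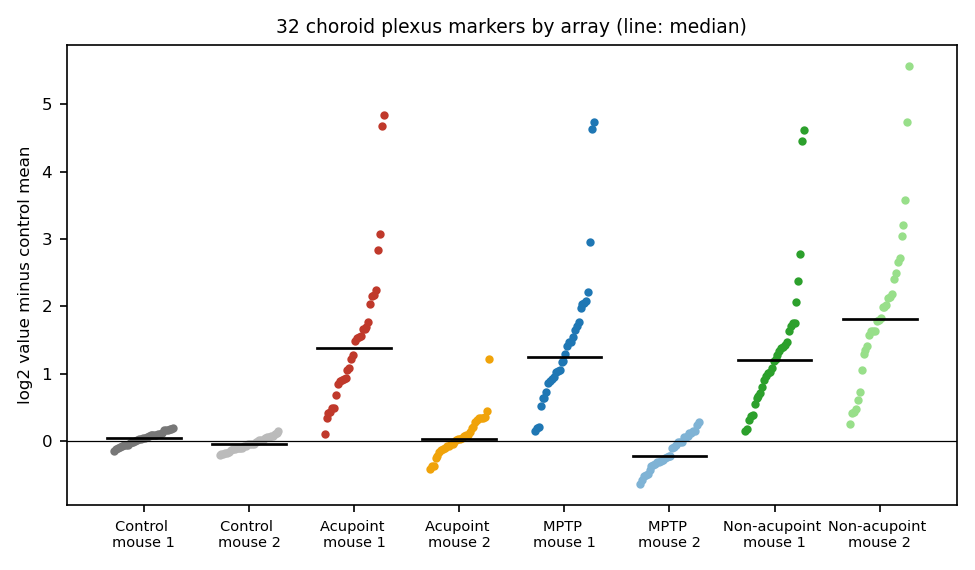
Log2 value minus the control mean (y axis) of the 32 measured choroid plexus markers on each of the 8 arrays (x axis), 1 point per gene and a line at the median. The median is 1.38 in acupoint mouse 1 and 0.03 in acupoint mouse 2, and it is above 1 in MPTP mouse 1 and both non-acupoint mice.

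Markers of thalamus, septum and pallidum, regions that border the striatum, moved with the same mouse. Their median was 0.44 in acupoint mouse 1 and -0.14 in mouse 2, and mouse 1 exceeded mouse 2 in 20 of 23. Slc17a6, the vesicular glutamate transporter of thalamic neurons, was 10.96 and 9.08 in acupoint mice and 9.34 and 9.32 in controls, so that the groups overlapped. Lhx9, a thalamic transcription factor, was 6.84 and 6.36 in acupoint mice against 5.97 and 5.90 in controls, and Tcf7l2, a Wnt effector high in thalamus, 8.95 and 7.76 against 7.51 and 7.59. Pvalb, the calcium buffer of fast-spiking neurons, was 9.91 and 8.89 against 8.60 and 8.48, a difference of 0.86. In acupoint mice 1 and 2 the immediate early median was -0.25 and -0.29, the cortical marker median -0.34 and -0.37 and the glucocorticoid median 0.15 and 0.19. The part that neighbouring tissue has in the differences between the groups was not tested.

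Genes of dopamine signalling in striatal neurons showed no shared direction. Of 19 measured receptors and signalling genes 9 were higher and 10 lower, 0 had an unadjusted p under 0.05, and the median was -0.00033. The acupoint mice lay on opposite sides of the controls, with a median of -0.16 in mouse 1 and 0.26 in mouse 2, and mouse 1 was below mouse 2 in 17 of 19. Drd1, the receptor of direct-pathway neurons, was 10.29 and 10.32 in controls and 10.16 and 10.41 in acupoint mice (difference -0.02, SE 0.11). Drd2, that of indirect-pathway neurons, was 10.11 and 10.04 against 9.92 and 10.44 (difference 0.11, SE 0.17). Penk differed by 0.07 (SE 0.12), Ppp1r1b by 0.01 (SE 0.13), the substance P precursor Tac1 by 0.20 (SE 0.11) and the dynorphin precursor Pdyn by 0.24 (SE 0.10).

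Genes of dopamine synthesis, transport and breakdown had no shared direction, with 7 of 14 higher and a median of 0.01. In dopamine neurons their messenger RNA is made in midbrain cell bodies. Th, tyrosine hydroxylase, was 6.73 and 6.80 in controls and 6.65 and 7.35 in acupoint mice, and Slc6a3, the dopamine transporter, 5.95 and 5.54 against 5.73 and 6.70, both with overlapping groups. The members with the smallest p were Nr4a2, given above, with a difference of -0.48, and Aldh1a1. Aldh1a1, an aldehyde dehydrogenase of dopamine neurons, was 9.53 and 9.62 against 9.84 and 9.81, a difference of 0.25. Dopamine axons themselves were not measured.

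Blood vessel genes divided. Of 28 endothelial and pericyte markers 15 were higher and 13 lower. At an unadjusted p under 0.05, 2 were higher and 3 lower, against 1.63% and 3.08% of all genes. Cldn5, the tight junction protein of the blood-brain barrier, was 8.71 and 8.76 in controls and 8.19 and 8.23 in acupoint mice, a difference of -0.53 (SE 0.09, adjusted p = 0.648). Kdr, the main VEGF receptor, was 7.13 and 7.23 against 6.84 and 6.70 (difference -0.41), and Vtn, the vitronectin of pericytes, differed by -0.27. Mfsd2a, the lipid transporter that limits vesicle traffic across the barrier, was 7.98 and 7.99 against 8.36 and 8.44 (difference 0.41), and Slc2a1, the glucose transporter, differed by 0.24. In the fit on all 8 arrays 2 of the 28 kept an unadjusted p under 0.05, both lower.

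Receptors and growth factor genes showed scattered differences. Among 13 serotonin receptors, Htr1a was 7.61 and 7.77 in controls and 7.37 and 6.55 in acupoint mice (difference -0.73, SE 0.25), Htr1f differed by -0.36, and Htr1b, which striatal neurons send to their terminals, by 0.34. Among 24 neurotrophic genes, the leukaemia inhibitory factor receptor Lifr differed by 0.44, the hepatocyte growth factor gene Hgf by -0.43 and the neurturin receptor Gfra2 by -0.48. Nqo1, a quinone reductase, was 6.11 and 6.12 against 6.54 and 6.40 (difference 0.36) and Nfe2l2, the factor that drives it, 7.70 and 7.92 against 8.16 and 8.22 (difference 0.38). They were 2 of 28 antioxidant genes, whose median was 0.05. Rsad2, an antiviral interferon target, was 6.10 and 5.95 against 5.52 and 5.56 (difference -0.48), while the 18 interferon genes had a median of -0.03.

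Glial and stress lists had medians near that of all genes, though in some the acupoint mice parted. Microglia and complement markers had 9 of 20 higher and 0 at an unadjusted p under 0.05, with a median of -0.02. Their median was -0.11 in acupoint mouse 1 and 0.085 in mouse 2, on opposite sides of the controls, and mouse 1 was below mouse 2 in 20 of 20. Reactive astrocyte genes had a median of -0.01 over 15, and Gfap, the astrocyte filament, was 7.98 and 8.06 in controls and 8.18 and 7.84 in acupoint mice. Their members Cd109 (5.20 and 5.33 against 5.71 and 5.60) and Steap4 (5.18 and 5.20 against 5.75 and 5.41) were higher by 0.39 each. Both had a limma unadjusted p under 0.05, where 1.63% of all genes were higher, and in controls lay near the filter of 5.25. Astrocyte identity markers had 11 of 16 lower, against 56.7% of all genes, with a median of -0.05. Oligodendrocyte and myelin genes had a median of -0.01 over 21, with the lineage factor Olig2 at -0.31 (7.75 and 7.85 against 7.56 and 7.42). Endoplasmic reticulum stress genes had a median of -0.02 over 23, inducible chaperones one of -0.05 over 21 (0.068 in mouse 1 and -0.12 in mouse 2), complex I subunits one of -0.01 over 35, and genes of familial parkinsonism and mitophagy one of 0.01 over 19. Apoptosis genes had a median of 0.02 over 19, with the inhibitor Birc3 at -0.27.

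**Figure D5:**
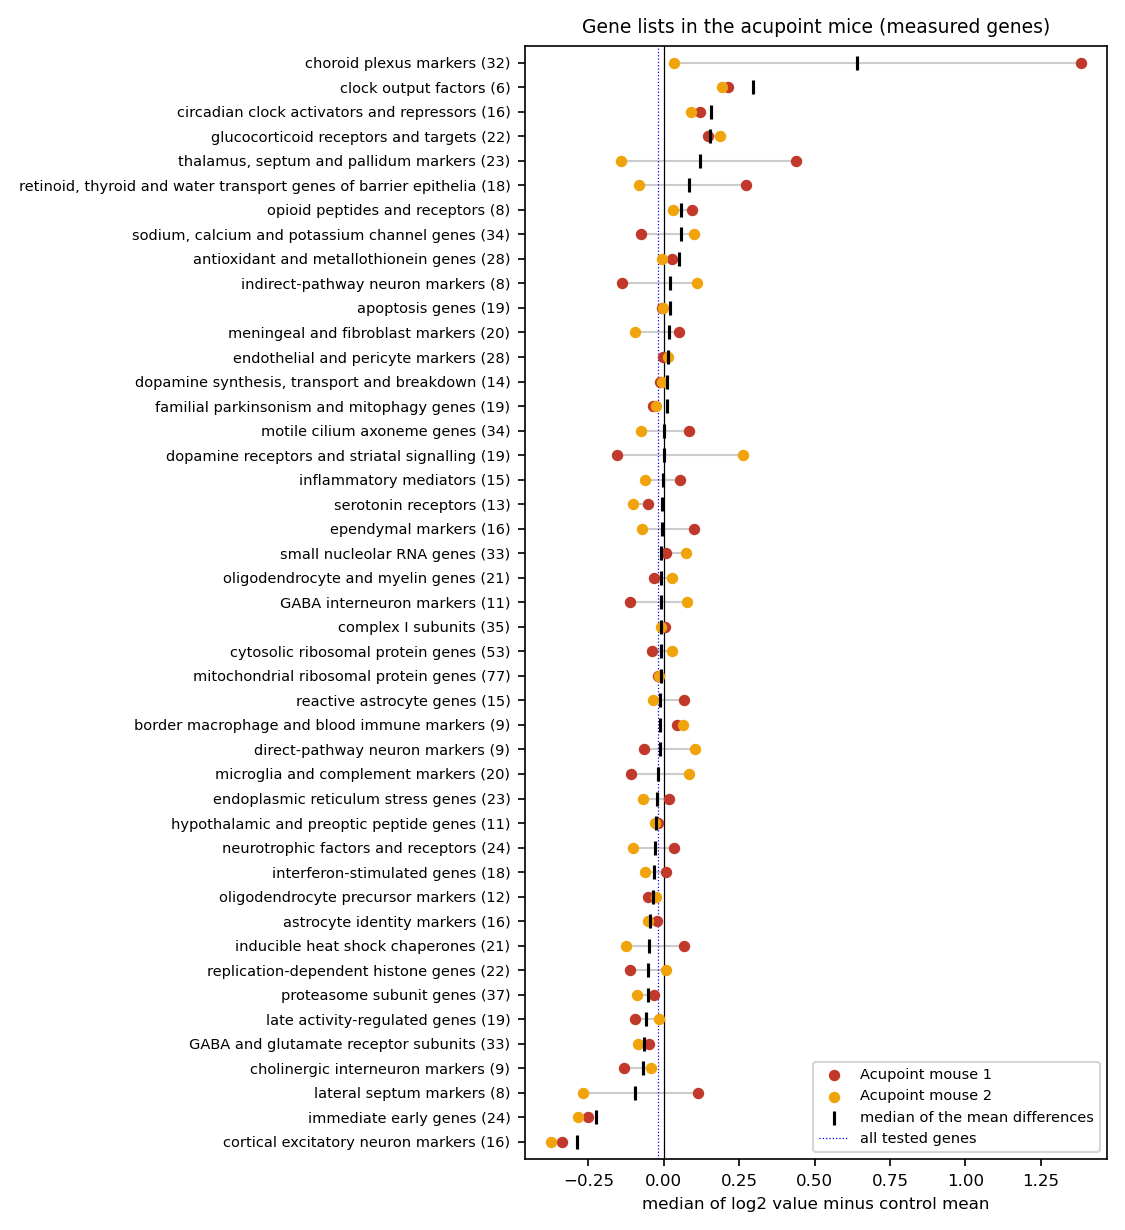
Median over the measured genes of each list of the log2 value minus the control mean (x axis) in acupoint mouse 1 and acupoint mouse 2, with a tick for the median of the mean differences and a dotted line for all genes. Immediate early and cortical lists lie left and glucocorticoid and clock lists right in both mice, while choroid plexus markers lie at 1.38 in mouse 1 and 0.03 in mouse 2.

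The other MPTP-treated groups were compared with the same 2 controls, so their differences share those arrays with the acupoint difference and are given only side by side. The median of the immediate early genes was -0.23 in acupoint, -0.63 in MPTP and -0.42 in non-acupoint mice, with single-mouse medians of -0.81 and -0.29 for MPTP and -0.27 and -0.49 for non-acupoint. That of the glucocorticoid genes was 0.15, 0.14 and 0.08, and that of the cortical markers -0.29, -0.15 and -0.39. For the striatal signalling genes it was -0.00033, -0.61 and -0.31, with MPTP mouse 1 at -1.56 and MPTP mouse 2 at 0.30.

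Direct tests between the MPTP-treated groups called no gene. In the 8-array limma fit, 0 of 16342 probe sets were called between acupoint and MPTP mice (588, 3.6%, at an unadjusted p under 0.05) and 0 between acupoint and non-acupoint mice (526, 3.22%). Sgk1 was 9.84 and 9.77 in MPTP mice and 8.83 and 9.06 in non-acupoint mice, so acupoint exceeded non-acupoint by 0.95 (adjusted p = 0.964) and MPTP by 0.09. Glp1r, the receptor of glucagon-like peptide 1, was 7.42 in both controls, 7.70 and 7.01 in acupoint mice and 5.76 and 5.68 in MPTP mice. Acupoint mice thus exceeded MPTP mice by 1.63 (adjusted p = 0.902) and differed from controls by -0.06. Avpr1a, a vasopressin receptor of the lateral septum, was 7.03 and 7.14 in controls, 6.85 and 6.76 in acupoint mice and 6.24 and 6.10 in MPTP mice, an acupoint excess over MPTP of 0.64 (adjusted p = 0.902). Npas4 and Arc were higher in acupoint than in MPTP mice by 0.53 and 0.69, each with an adjusted p of 0.902. The smallest adjusted p among all tested genes was 0.902 against MPTP and 0.964 against non-acupoint mice. Library makeup differed among these mice: the choroid plexus median was 1.24 and -0.21 in MPTP mice and 1.21 and 1.81 in non-acupoint mice, and the median of lateral septum markers was 0.12 and -0.27 in acupoint mice and -0.77 and -0.71 in MPTP mice. Their part in these differences was not tested.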

How the data were processed

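RNA of both striata was measured on Affymetrix mouse arrays, 1 array per mouse. The deposited log2 expression values were made by the authors with RMA in Affymetrix Expression Console, per the submitters' processing notes, which name no version.

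Tested probe sets had 1 gene symbol and reached 5.25, the 25th percentile of their kind, on average across all 8 arrays, and a gene is shown by its probe set of highest mean. Acupoint minus control was fitted on 4 arrays with limma 3.58.1 in R 4.3.3 (2-sided, Benjamini-Hochberg over all tested probe sets, threshold 0.05, 2 residual and 4.37 prior degrees of freedom), tested on simulated data first. Other comparisons between groups used all 8 arrays. P-values measure the spread between separate mice, and an exact permutation test of 2 against 2 cannot go below 0.333.

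Genes were named by p (12 higher and 12 lower), by size (6 and 6), as up to 6 list members by p, all with groups that do not overlap, as the 10 that differed most between the acupoint mice, or as 16 markers. Gene models, receptors of smell and taste, histone, small RNA and pseudogenes were left out, and not every gene that qualified is described. Members and lists were chosen with earlier results of these data known. Alternatives varied the arrays, the replicate block, the variance model, the filter, the probe sets and the scaling.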

Additional observations from a re-analysis of the deposited data

Results flagged for a closer look

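Among the 82 genes checked across settings, 7 had acupoint and control groups that did not overlap and both mice of another MPTP-treated group on the opposite side of the control mean. Genes outside these 82 also meet this criterion and are not listed. The groups share their controls, so the difference itself was tested as acupoint minus the other group in the 8-array limma fit, and no gene passed after adjustment.

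Nr4a3, an immediate early nuclear receptor, differed from controls by 0.136 in acupoint mice, -0.594 in MPTP mice and -0.27 in non-acupoint mice, with an acupoint excess of 0.73 over MPTP (adjusted p = 0.902) and 0.41 over non-acupoint (adjusted p = 0.964). Slc17a7 differed by -1.44 in acupoint and 0.177 in MPTP mice, a gap of -1.62 (adjusted p = 0.902), while the non-acupoint mice were at 6.61 and 8.84. Kdr differed by -0.408 in acupoint and 0.187 in non-acupoint mice, a gap of -0.60 (adjusted p = 0.964). Vtn differed by -0.268 in acupoint and 0.126 in MPTP mice, a gap of -0.39 (adjusted p = 0.902). Tac1 differed by 0.201 in acupoint and -0.415 in non-acupoint mice, a gap of 0.62 (adjusted p = 0.964). Avpr1a differed by -0.285 in acupoint and 0.117 in non-acupoint mice, a gap of -0.40 (adjusted p = 0.964). Birc3 differed by -0.27 in acupoint and 0.0567 in MPTP mice, a gap of -0.33 (adjusted p = 0.902).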

How the results depend on the processing

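The count of 1 called probe set became 0 with all 8 arrays in the fit, without the filter on dim probe sets and with unnamed and several-gene probe sets included, 4 with a variance trend and 2 with the filter at the median. At an unadjusted p the count of 750 became 312 with all 8 arrays. Leaving out 1 array gave between 0 and 76 calls (0 without either control, 8 without acupoint mouse 1, 76 without acupoint mouse 2) and between 301 and 1991 at an unadjusted p. Each such fit leaves 1 arm with a lone mouse, assumed to vary like the other group, so its p rests on the spread of that other pair. Quantile normalisation of the 4 arrays gave 395 higher and 430 lower, against 264 and 486. With mouse number as a replicate block there was 1 call and 570 at an unadjusted p. The gap between mouse 1 and mouse 2 in controls correlated at -0.185 with that in acupoint mice. That correlation cannot show whether same-numbered mice were handled together, because mice within a group also differ in other ways. A crossed pairing, chosen after seeing the data, gave 2 calls and 1073. The causes were not tested.

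Of the 82 genes checked across settings, 71 kept their direction in every setting. Many were named on condition that the groups do not overlap, so leaving out 1 array could not turn their sign. Settings that changed only the variance model, the replicate block or the arrays used for the error return the same difference by construction. For such genes the kept direction is therefore no test of robustness. Gfap turned to 0.00138 with each array centred on its median. Leaving out 1 array turned the sign of 11: Nr3c1 (-0.057 to 0.10), Sostdc1 (-0.038 to 2.83), Drd1 (-0.15 to 0.10), Drd2 (-0.16 to 0.37), Penk (-0.077 to 0.22), Ppp1r1b (-0.16 to 0.18), Th (-0.11 to 0.59), Slc6a3 (-0.023 to 0.95), Gfap (-0.18 to 0.16), Glp1r (-0.41 to 0.29) and Slc17a6 (-0.25 to 1.63). Npas4 passed at an adjusted p of 0.0308 with a variance trend and 0.0308 with the filter at the median and, on the spread of the control pair alone, 0.0286 without acupoint mouse 1 and 0.00909 without acupoint mouse 2. Over all settings its adjusted p lay between 0.00909 and 1. For Ccn3 that range was 0.00239 to 1. The choroid plexus count of 7 lay between 2 and 30 with 1 array left out (30 without acupoint mouse 2), was 2 with all 8 arrays and 21 with the replicate block.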

Other observations

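Of all genes, 56.7% had a lower mean and 43.3% a higher one. At an unadjusted p under 0.05, 3.08% were lower and 1.63% higher. Among lists not described above, proteasome subunit genes had 27 of 37 lower in acupoint mice, with a median of -0.05 and 0 at an unadjusted p under 0.05. Channel genes for sodium, calcium and potassium had 24 of 34 higher, with a median of 0.06 and 0 at that p; acupoint mouse 1 was above mouse 2 in 9 of 34. Ependymal markers had a median of -0.01 over 16 and 0 at that p, with acupoint mouse 1 above mouse 2 in 16 of 16. Receptor subunits for GABA and glutamate had 21 of 33 lower, with a median of -0.07 and 1 lower at that p, close to the shares of all genes. Genes of the cytosolic ribosome had a median of -0.01 over 53, with 3 higher at that p, and those of the mitochondrial ribosome one of -0.01 over 77, with 0.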
